A study of Nannochloropsis oceanica with 18 samples.

Results

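The genes described here are the protein kinases and protein phosphatases of Nannochloropsis oceanica IMET1, a marine unicellular alga that stores oil. They were chosen by the text of the annotation deposited with the expression tables. It had to hold the words protein kinase, serine/threonine, tyrosine kinase, MAP kinase, calmodulin-dependent, protein phosphatase or tyrosine phosphatase. Of 9756 genes, 164 matched, and 3 of these were dropped because the text named a cyclin, cell division or the cell cycle, which left 161. By the wording, 110 of them were protein kinases and 47 protein phosphatases. The other 4 matched although the annotation names another kind of protein: a serine/threonine dehydratase (g1929), a TBC domain protein (g8058), a protein kinase C-binding protein (g6404) and a MAP kinase organizer (g2216). One locus, g1359, is annotated both as the kinase PDK1 and as a PP2A phosphatase and was counted as a phosphatase. Only 6714 of the 9756 genes carry any annotation, so kinases without one were not counted.

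Protein kinases attach phosphate groups to other proteins and protein phosphatases remove them, and the balance of both sets the activity of many enzymes, transporters and transcription factors. Some kinases answer directly to a second messenger, such as calcium, cyclic AMP or AMP. Others work in relays, of which the MAP kinase cascade is the best known. In green algae and plants, calcium signals and kinases take part in the response to changes in inorganic carbon and energy supply. The activity of these proteins is largely set after translation, so a transcript level is not a measure of kinase activity.

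Cells had been grown to mid-logarithmic phase at 5% CO2 in continuous light, washed, placed in fresh medium and held for an hour at 5% CO2, and the 0 h cells were taken then. The rest were bubbled with 0.01% CO2 (very low CO2, VLC) or kept at 5% CO2 (high CO2, HC), and cells were taken at 3, 6, 12 and 24 h. This gave 18 mRNA-Seq libraries in 9 groups of 2: VLC and HC at each of the 4 times, and 0 h. All groups are strain IMET1 in the same medium and light, and the comparison of VLC with HC at a time asks what low CO2 did beyond the move to fresh medium.

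Values are FPKM, read fragments scaled to transcript length and library size. Library totals lay between 563972 and 720860 FPKM, and the 161 genes took 0.575% to 0.817% of them. Since FPKM are shares of a library, a lower value of one gene and more RNA of the rest cannot be told apart. The libraries of HC at 12 h stood apart: the median gene had 17.5 and 17.6 FPKM there, against 22.4 to 28.1 FPKM in the other 16 libraries. On the log2(FPKM + 1) scale this put the median gene of VLC 0.585 above that of HC at 12 h, with shifts within 0.1 of 0 at 3, 6 and 24 h. Many counts and changes at 12 h are therefore also given relative to the median gene, that is with this shift subtracted. Any change at 12 h given only as measured still includes it. The replicate libraries of HC at 3 h differed most from each other, with an SD of the log2 difference of 0.397, against 0.133 to 0.286 in the other groups.

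Most of the 161 transcripts were of moderate to low abundance. Their mean FPKM over all libraries ran from 0.129 to 174 with a median of 18.6, against a median of 26.4 FPKM for all genes. A mean of at least 10 FPKM in some group was reached by 150 of them, and only these entered the tests. Another 11 stayed below it, among them the cGMP-dependent kinase g4651, the cAMP-dependent kinase regulatory subunit g8092 and the catalytic subunit of DNA-dependent protein kinase, g1584. A value of 0 was listed in at least 1 library for 6 of the 161, in 24 of 2898 values. Their loci spanned a median of 3080 bases, against 2136.5 bases for all genes, and lay on 44 scaffolds.

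Differences between VLC and HC were few at 3 and 6 h and many at 12 and 24 h. A gene was called higher or lower where limma gave an adjusted p of at most 0.05 and the change was at least 2-fold. At 3 h, 3 of the 108 kinases and phosphatases tested were called higher in VLC, against 0.701% of all genes, and 0 were called lower, against 0.268%. With limma, 33 of the 108 had an unadjusted p under 0.05, against 32.0% of all genes. At 6 h, 3 of 113 were called higher (1.84% of all genes) and 0 lower (0.252% of all genes), again with 33 at an unadjusted p under 0.05 from limma, against 26.2% of all genes.

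At 12 h, 23 of 135 were called higher in VLC and 22 lower. Of all genes tested, 27.6% were called higher at that time and 4.36% lower. The median log2 change of the 135 was 0.40, against 0.58 for all genes, and relative to the median gene it was -0.18. On that scale, 7 were called higher (8.85% of all genes) and 36 lower (11.4% of all genes), and all 22 genes called lower as measured were among those 36. At 24 h, 18 of 116 were called higher (11.2% of all genes) and 5 lower (5.95% of all genes). The share called lower at 12 h thus stood above the share in all genes on both scales, and the share called higher stood below it on both scales.

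Only genes with at least 10 FPKM on average in VLC or HC were tested at a time, so some entered through the group in which they were high. Of the 22 genes lower at 12 h, 10 reached 10 FPKM only in HC, and of the 23 higher, 12 reached it only in VLC. All 3 genes higher at 3 h and 2 of the 3 higher at 6 h reached it only in VLC. At 24 h, 9 of the 18 higher reached it only in VLC and 2 of the 5 lower only in HC. With a minimum of 1 FPKM, 155 genes were tested, with 32 called higher (28.2% of all genes) and 22 lower (3.97% of all genes). Kinases made up 20 of the 22 genes lower at 12 h, out of 91 tested. Phosphatases made up 2, out of 42 tested, and 6 of the 23 genes higher. The share called lower was 22.0% of the kinases and 4.76% of the phosphatases, against 4.36% of all genes. Relative to the median gene it was 35.2% and 9.52%, against 11.4% of all genes. The phosphatases alone thus lay near or under the share of all genes.

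**Figure D1:**
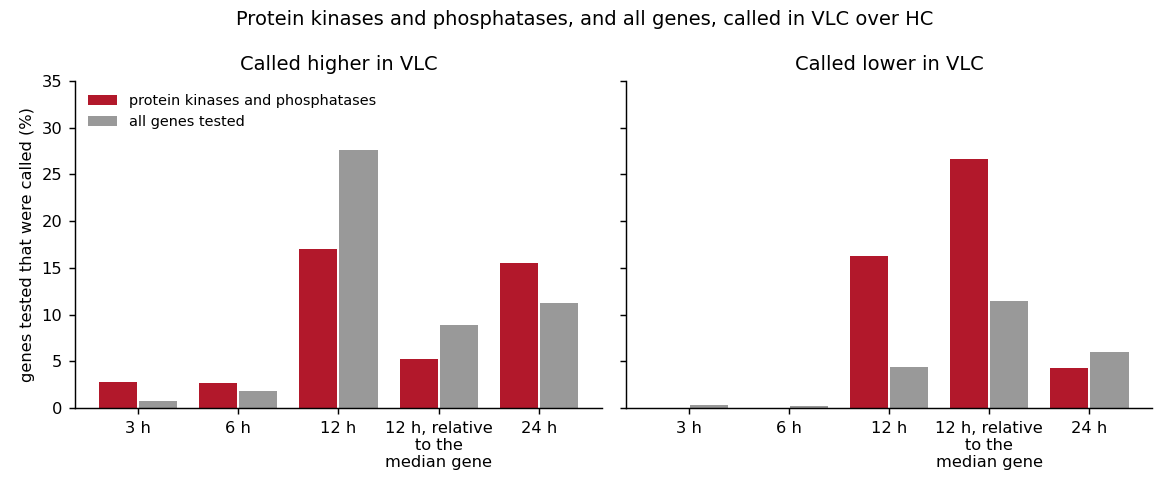
Percent of genes tested (y axis) called higher (left panel) or lower (right panel) in VLC over HC at each time (x axis), for the protein kinases and phosphatases (red) and for all genes tested (grey), with 12 h also shown relative to the median gene. The red bar stands above the grey bar at 12 h in the right panel, 22 of 135 genes against 4.36% of all genes as measured, and below it in the left panel.

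Across the 4 times, 60 of the 149 genes tested at 1 or more of them were called at least once, or 40.3%, against 38.0% of 9239 genes. A single time accounted for 49 of them, 8 were called at 2 times and 3 at 3 times, and 0 at all 4 times. Higher calls were made for 35 genes, or 23.5% against 29.5% of all genes, and lower calls for 27, or 18.1% against 8.79% of all genes. In all, 2 genes, g3817 and g6634, had both.

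The 3 genes called at 3 times were all kinases and all higher in VLC. g2471, a serine/threonine protein kinase with no closer annotation (scaffold00070, 10217 to 12321), had 4.92 and 4.06 FPKM at 0 h. At 3 h it had 24.6 and 18.8 FPKM in VLC against 6.74 and 8.85 FPKM in HC, and at 6 h 10.6 and 12.2 FPKM in VLC against 10.5 and 9.95 FPKM in HC. At 12 h it had 105 and 107 FPKM in VLC against 9.11 and 6.64 FPKM in HC, and at 24 h 172 and 195 FPKM in VLC against 15.2 and 10.6 FPKM in HC. Both VLC libraries stood above both HC libraries at every time, but by less than the difference between replicates at 6 h. The log2 change was 1.37 at 3 h (standard error, SE, 0.18, limma adjusted p = 0.00035), 3.60 at 12 h (adjusted p = 7.8e-10) and 3.75 at 24 h (adjusted p = 4.4e-10). It was 0.14 at 6 h (limma adjusted p = 0.68).

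g7153, another serine/threonine protein kinase (scaffold00252, 369065 to 370714), was low at the start, with 3.41 and 4.36 FPKM at 0 h. At 6 h it had 10.8 and 28.3 FPKM in VLC against 1.51 and 1.36 FPKM in HC, at 12 h 42.9 and 39.4 FPKM in VLC against 13.6 and 14.1 FPKM in HC, and at 24 h 65.5 and 63.1 FPKM in VLC against 2.72 and 3.58 FPKM in HC. The VLC libraries climbed at every step after 3 h, while the HC libraries were high at 12 h and low again at 24 h. Its log2 changes were 2.93 at 6 h (SE 0.28, limma adjusted p = 6.9e-06), 1.50 at 12 h (adjusted p = 0.00023) and 3.98 at 24 h (adjusted p = 2.6e-08). The 2 VLC libraries at 6 h differed from each other, and without replicate 2 the change at 6 h was 2.28. Relative to the median gene the change at 12 h was 0.92, below the 2-fold limit.

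g5040, annotated as calcium/calmodulin-dependent protein kinase 1 (scaffold00145, 583288 to 587251), was the third, and is a kinase of the type that calcium-bound calmodulin switches on. It had 2.75 and 2.58 FPKM at 0 h. At 3 h it had 11.3 and 13.3 FPKM in VLC against 3.28 and 3.54 FPKM in HC, and at 12 h 50.6 and 53.2 FPKM in VLC against 14.4 and 12.0 FPKM in HC. At 24 h it had 62.5 and 63.4 FPKM in VLC against 30.7 and 31.6 FPKM in HC. The transcript was thus higher with time under both gases and at each time higher in VLC. Its log2 changes were 1.59 at 3 h (SE 0.18, limma adjusted p = 8.5e-05), 1.29 at 6 h (adjusted p = 0.0002) and 1.90 at 12 h (adjusted p = 2.6e-07). At 24 h the change was 0.99 (limma adjusted p = 0.00023), just under the 2-fold limit. The VLC libraries at 6 h had 18.2 and 31.8 FPKM, against 9.60 and 8.93 FPKM in HC, and without VLC replicate 2 the change at 6 h was 0.91.

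**Figure D2:**
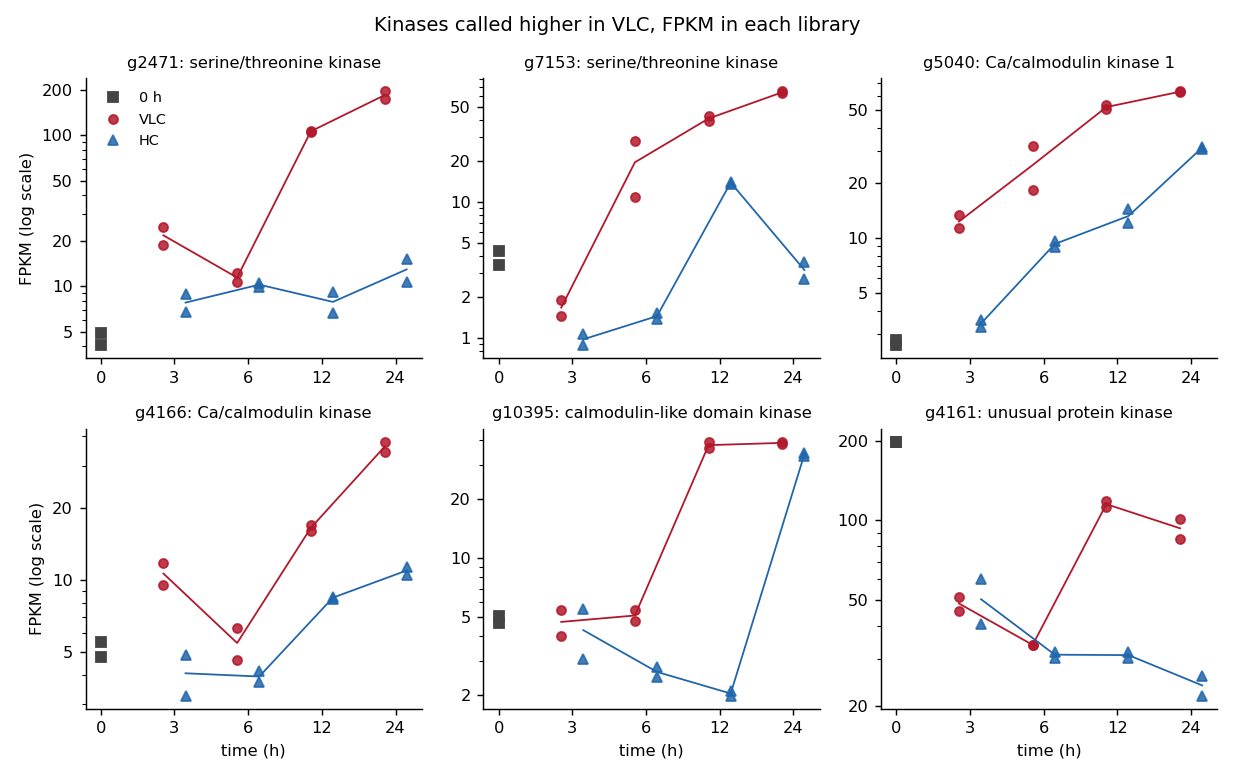
FPKM on a log scale (y axis) of 6 kinases at each time in h (x axis, times evenly spaced) in single libraries of VLC (red circles) and HC (blue triangles), with 0 h as grey squares; lines join the means of the 2 libraries. g2471 stands apart from 12 h on, at 105 to 195 FPKM in VLC and 6.64 to 15.2 FPKM in HC, while g10395 differs at 12 h and has 33.4 to 39.3 FPKM in all libraries at 24 h.

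Among the kinases tied to calcium were calmodulin-dependent kinases, the calcium-dependent kinases of plants and protists that carry a calmodulin-like part of their own, and the CBL-interacting kinases, which in plants bind calcineurin B-like calcium sensors. Of 15 such genes, 13 were tested at 12 h, with 3 called higher in VLC and 2 lower, or 2 and 6 after subtraction of the median gene. Over all genes the shares at 12 h were 27.6% and 4.36%, or 8.85% and 11.4% after that subtraction. At 24 h, 4 of 11 were called higher, against 11.2% of all genes, and 0 lower, against 5.95%, or 3 and 1 after that subtraction. The median log2 change was -0.07 at 12 h and 0.56 at 24 h, against 0.58 and 0.09 over all genes.

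The widest difference of the class belonged to g10395, a calmodulin-like domain protein kinase (scaffold00355, 297915 to 304323). It had 39.0 and 36.5 FPKM in VLC against 1.98 and 2.10 FPKM in HC at 12 h. By 24 h both gases had reached the same range, with 38.3 and 39.3 FPKM in VLC and 34.4 and 33.4 FPKM in HC. VLC over HC, the log2 change was 3.67 at 12 h (SE 0.18, limma adjusted p = 5.8e-10) and 0.19 at 24 h (adjusted p = 0.37).

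g4166, a calcium/calmodulin dependent protein kinase, had 9.52 and 11.7 FPKM in VLC against 3.25 and 4.85 FPKM in HC at 3 h. At 24 h it had 34.2 and 37.8 FPKM in VLC against 11.3 and 10.5 FPKM in HC. Its log2 change was 1.21 at 3 h (limma adjusted p = 0.00034) and 1.63 at 24 h (standard error 0.16, adjusted p = 6.9e-07). The call at 3 h rests on single libraries, since the change was 0.98 without HC replicate 1, and without VLC replicate 2 (1.08) neither group reached 10 FPKM.

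Both CBL-interacting kinases that could be tested were called higher in VLC at 24 h. Both were lower in VLC at 12 h, though not called as measured. Subtracting the median gene shift of 0.585 lowers those 12 h changes further. g8771 had 26.1 and 25.5 FPKM in VLC against 7.67 and 7.32 FPKM in HC at 24 h, a log2 change of 1.66 (SE 0.15, limma adjusted p = 2.4e-07). At 12 h the order was the other way round, with 15.9 and 17.9 FPKM in VLC against 28.2 and 27.6 FPKM in HC, a log2 change of -0.69. g9108 had 13.5 and 12.4 FPKM in VLC against 4.10 and 3.74 FPKM in HC at 24 h, a log2 change of 1.50 (limma adjusted p = 7.5e-07), and its change at 12 h was -0.83. Its locus begins at base 1 of scaffold00325, so the gene model reaches the edge of the assembly there.

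The calls of g3817 went both ways. It is annotated as calcium-dependent protein kinase isoform 2. It had 13.9 and 18.7 FPKM in VLC against 59.0 and 56.2 FPKM in HC at 12 h, and 71.7 and 54.8 FPKM in VLC against 30.0 and 29.4 FPKM in HC at 24 h. The groups did not overlap at either time, and the direction was opposite. The log2 change was -1.77 at 12 h (SE 0.17, limma adjusted p = 3.1e-07) and 1.05 at 24 h (adjusted p = 8.4e-05). Without VLC replicate 1 the change at 24 h was 0.86, and relative to the median gene 0.96.

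The EF-hand kinase g1789 (scaffold00043, 742134 to 745186), whose EF-hands are calcium-binding loops, had 7.13 and 7.98 FPKM in VLC against 42.2 and 40.4 FPKM in HC at 12 h. In the other 14 libraries it had between 4.69 and 12.1 FPKM, so the high values were those of HC at 12 h. The log2 change at 12 h was -2.31 (SE 0.14, limma adjusted p = 3.3e-09). g3677, annotated as calcium/calmodulin-dependent protein kinase IV, had 30.6 and 29.2 FPKM in VLC against 11.8 and 10.7 FPKM in HC at 12 h, a log2 change of 1.34 (limma adjusted p = 3.1e-08) that was 0.75 relative to the median gene. g3539, the most abundant kinase of the class, was not called at any time, with 36.5 and 36.2 FPKM in VLC against 19.2 and 20.5 FPKM in HC at 12 h.

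In a MAP kinase cascade a MAP kinase kinase kinase activates a MAP kinase kinase, which activates a MAP kinase, and STE20-type kinases often act above it. Of 15 such genes, 14 were tested at 12 h, with 1 called higher in VLC and 5 lower, and relative to the median gene 0 and 6. Of all genes, 27.6% were called higher and 4.36% lower at 12 h, and 8.85% and 11.4% relative to the median gene. The 5 lower genes came from all 3 tiers: the MAP kinases g4302, g202 and g9945, the dual specificity MAP kinase kinase g5068 and the MEKK-related kinase g8824. g4302 had 95.6 and 99.7 FPKM in VLC against 297 and 291 FPKM in HC at 12 h, and between 13.4 and 50.1 FPKM in the other 14 libraries. It was thus above its 0 h level in both gases at 12 h, and more so in HC. Its log2 change was -1.58 (SE 0.10, limma adjusted p = 4.1e-09).

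g5068 had 28.2 and 29.3 FPKM in VLC against 65.3 and 68.4 FPKM in HC at 12 h, and g8824 had 11.7 and 14.4 FPKM in VLC against 32.7 and 33.0 FPKM in HC. Their log2 changes were -1.19 (limma adjusted p = 4.1e-07) and -1.27 (limma adjusted p = 3e-05). g202 and g9945 share the annotation of a double HA-tagged MAP kinase, wording carried over from a database entry, and had log2 changes of -1.74 (limma adjusted p = 7.1e-09) and -1.78 (limma adjusted p = 1.2e-08). The 2 other genes with that annotation, g2009 and g2010, lie 55 bases apart and were not called. Their changes of 0.58 and 0.47 at 12 h were 0.00 and -0.11 relative to the median gene.

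At the other end of the class, the MAP kinase g7201, the most abundant of the cascade, had 125 and 119 FPKM in VLC against 58.0 and 59.9 FPKM in HC at 12 h. Its log2 change was 1.04 (SE 0.08, limma adjusted p = 5.2e-08), and 0.45 relative to the median gene. Over time it had 43.3 and 38.4 FPKM at 0 h, 205 and 245 FPKM in VLC and 174 and 174 FPKM in HC at 6 h, and 151 and 147 FPKM in VLC and 144 and 143 FPKM in HC at 24 h. The MAP kinase g9234 was the one lower at 24 h, with 7.47 and 7.74 FPKM in VLC against 19.0 and 19.5 FPKM in HC, a log2 change of -1.24 (SE 0.08, limma adjusted p = 6.3e-09). The STE20-type kinase g6368 was the one higher at 24 h, with 22.5 and 22.5 FPKM in VLC against 9.63 and 10.1 FPKM in HC and a log2 change of 1.11 (limma adjusted p = 1.1e-06).

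The largest class, 46 protein kinases whose annotation names no family, held 10 of the 22 genes lower at 12 h. Of 39 tested, 7 were called higher in VLC and 10 lower, or 1 and 14 after subtraction of the median gene. The shares of all genes at 12 h were 27.6% and 4.36%, or 8.85% and 11.4% after that subtraction. The counts at 24 h were 7 higher (11.2% of all genes) and 1 lower (5.95% of all genes) of 29. The lowest ratio of any member at 12 h was that of g7254, a protein kinase domain protein (scaffold00259, 191831 to 194515), with 8.34 and 8.84 FPKM in VLC against 59.7 and 63.9 FPKM in HC. Its other 14 libraries had 9.24 to 17.9 FPKM. This was a log2 change of -2.71 (SE 0.15, limma adjusted p = 1.8e-09).

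g8125 had 2.91 and 3.78 FPKM in VLC against 19.0 and 22.0 FPKM in HC at 12 h, a log2 change of -2.31 (limma adjusted p = 3.5e-09). g366 had 3.35 and 4.94 FPKM in VLC against 18.9 and 20.2 FPKM in HC, a change of -2.01 (limma adjusted p = 1.3e-07). Both reached 10 FPKM at 12 h only in HC. The abundant serine/threonine kinase g6278 had 82.9 and 92.5 FPKM in VLC against 291 and 279 FPKM in HC at 12 h, and it passed 10 FPKM in every library. Its change was -1.69 (SE 0.08, limma adjusted p = 6.3e-10).

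A pair of neighbouring genes, g3253 and g3254, lies 214 bases apart on scaffold00084 and shares an annotation as putative serine/threonine kinases. g3253 had 3.51 and 4.24 FPKM in VLC against 17.3 and 14.1 FPKM in HC at 12 h, and g3254 had 7.83 and 9.59 FPKM in VLC against 34.7 and 36.0 FPKM in HC. Their log2 changes were -1.77 (limma adjusted p = 1.8e-07) and -1.91 (limma adjusted p = 3.8e-09). Reads that mapped to more than 1 place were left out by the authors, so genes with near-identical copies may be undercounted, and whether these 2 are such copies was not tested.

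**Figure D3:**
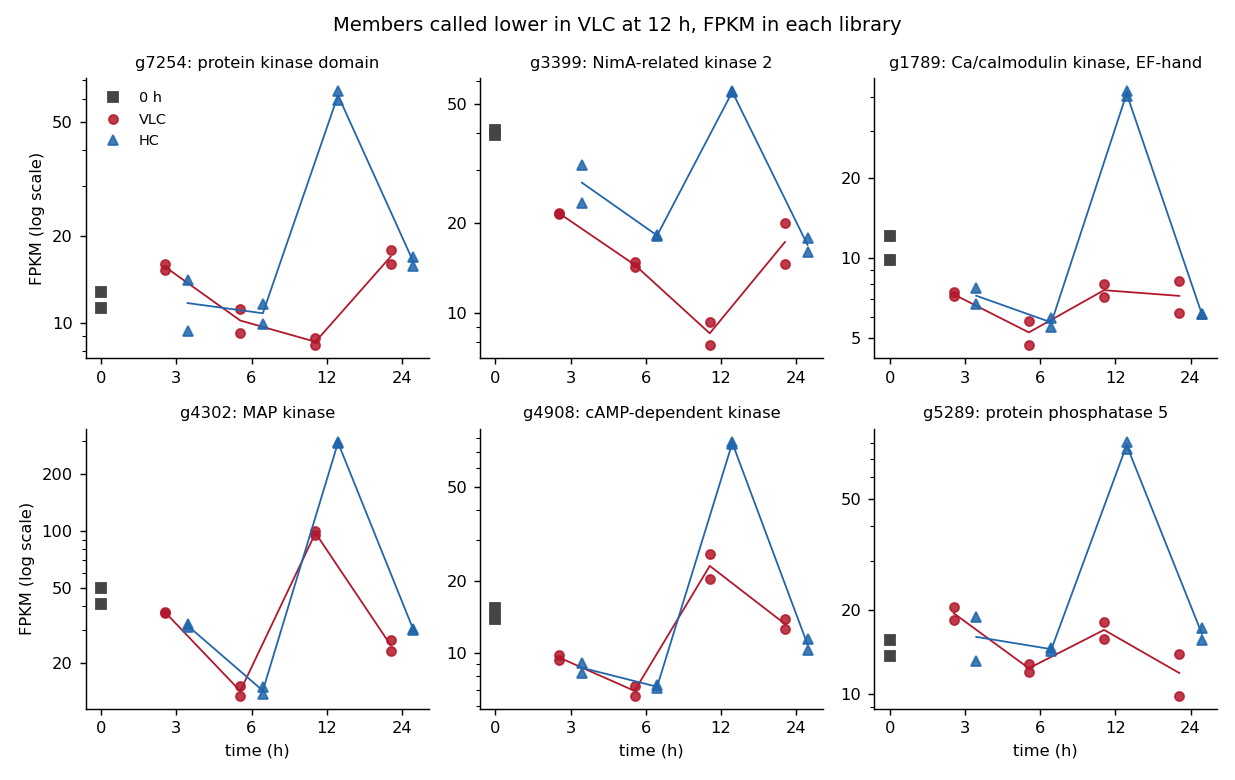
FPKM on a log scale (y axis) of 5 kinases and 1 phosphatase called lower in VLC at 12 h, at each time in h (x axis, times evenly spaced), in single libraries of VLC (red circles) and HC (blue triangles), with 0 h as grey squares and lines through the means of 2 libraries. In each panel the HC libraries at 12 h are the highest of the 18, for example 59.7 and 63.9 FPKM in g7254 and 297 and 291 FPKM in g4302.

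At 24 h the unclassified kinases higher in VLC, beside g2471 and g7153, were g7013, g5531, g10098, g8478 and g4276. g7013 had 14.7 and 15.9 FPKM in VLC against 3.42 and 2.80 FPKM in HC, a log2 change of 1.99 (SE 0.26, limma adjusted p = 1.1e-05). Its 0 h libraries disagreed, with 12.0 and 23.0 FPKM. g10098 had 38.1 and 36.3 FPKM in VLC against 13.0 and 13.2 FPKM in HC, and g4276 had 39.3 and 41.5 FPKM in VLC against 16.2 and 15.7 FPKM in HC. Both were also called higher at 12 h, with changes of 1.08 and 1.19, which were 0.49 and 0.61 relative to the median gene. g6609 was the class's single lower call at 24 h, with 20.3 and 19.6 FPKM in VLC against 47.4 and 44.4 FPKM in HC and a change of -1.16 (limma adjusted p = 8.5e-07). The most abundant protein kinase of all, g1922, ran between 125 and 239 FPKM and was not called at any time.

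SNF1-type kinases and their animal counterpart AMPK are activated when cellular energy is low. Of 3 genes of this class, g2901, the SNF1-related kinase, was called higher at 12 h, with 60.7 and 57.2 FPKM in VLC against 28.2 and 27.8 FPKM in HC. Its log2 change of 1.05 (SE 0.07, limma adjusted p = 8.4e-09) was 0.46 once the median gene was subtracted. At 24 h it was 0.09. The AMPK catalytic subunit g393 had 11.7 and 11.8 FPKM in VLC against 24.6 and 21.1 FPKM in HC at 12 h, a change of -0.90 (limma adjusted p = 1.9e-05), and was called lower only relative to the median gene. The gamma subunit g8295, which in other organisms binds the adenine nucleotides, is a model of the first 480 bases of its scaffold and its replicates scattered widely, with 25.4 and 6.82 FPKM in HC at 3 h.

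The AGC kinases include those activated by cyclic nucleotides, protein kinase C and PDK1, the kinase that switches on many of the others. Of 7 genes, at most 4 were tested at any time. g4908, the catalytic subunit of the cAMP-dependent kinase, had 20.5 and 26.0 FPKM in VLC against 77.5 and 75.7 FPKM in HC at 12 h, and 6.58 to 15.5 FPKM in the other 14 libraries. The log2 change was -1.69 (SE 0.11, limma adjusted p = 1e-08). Its annotated regulatory subunit g8092, which holds the catalytic subunit inactive until cAMP binds, never reached 10 FPKM. The protein kinase C-like g9278 had 23.7 and 23.7 FPKM in VLC against 12.3 and 12.4 FPKM in HC at 12 h, a change of 0.88 that did not reach 2-fold. The median gene changed by 0.585 in that comparison.

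The atypical kinases, whose catalytic domain departs from the common fold, include the ABC1 family, known in plants from chloroplasts and mitochondria. Of 6 genes, 5 were tested at 12 h with 3 called higher in VLC and 0 lower, and all 6 were tested at 24 h with 2 called higher and 0 lower. Over all genes, 27.6% were higher and 4.36% lower at 12 h, and 11.2% and 5.95% at 24 h. Relative to the median gene, 2 of the class were called higher at 12 h, against 8.85% of all genes. g4161, a predicted unusual protein kinase (scaffold00126, 8 to 1081, at the edge of its scaffold), had 198 and 197 FPKM at 0 h. At 12 h it had 112 and 118 FPKM in VLC against 30.2 and 31.9 FPKM in HC, and at 24 h 85.5 and 101 FPKM in VLC against 26.0 and 21.8 FPKM in HC. Under both gases it was below 61 FPKM at 3 and 6 h, and only the VLC libraries were higher again later. VLC over HC, the log2 change was 1.86 at 12 h (SE 0.14, limma adjusted p = 3.6e-08) and 1.92 at 24 h (adjusted p = 3.8e-08).

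g213, the gene annotated to the ABC1 family, had 66.1 and 63.9 FPKM in VLC against 24.8 and 23.0 FPKM in HC at 24 h. The log2 change was 1.41 (SE 0.10, limma adjusted p = 2.2e-08). The neighbours g2565 and g2566, 89 bases apart on scaffold00080, were called higher at 12 h, g2565 with 10.1 and 10.4 FPKM in VLC against 3.60 and 3.36 FPKM in HC, and g2566 with 12.6 and 12.3 FPKM in VLC against 2.99 and 3.60 FPKM in HC. Their changes were 1.33 (limma adjusted p = 3.8e-08) and 1.66 (limma adjusted p = 6.5e-09). Relative to the median gene they were 0.75 and 1.07, so that only g2566 remained past 2-fold. Both lay below their 0 h level of 16.0 to 20.5 FPKM in both gases at 12 h.

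The 11 kinases of mitosis and DNA damage included some that followed time closely under both gases. The class holds Aurora-like kinases, which guide spindle and chromosomes, NimA-related kinases, of which the founding member drives mitotic entry in Aspergillus, the Tousled-like kinase and the DNA damage kinase ATR. The Aurora-like kinase g8609 had 26.7 and 18.3 FPKM at 0 h, 35.0 and 41.8 FPKM in VLC and 38.3 and 35.0 FPKM in HC at 3 h, 62.7 and 68.8 FPKM in VLC and 76.8 and 75.0 FPKM in HC at 6 h, 111 and 110 FPKM in VLC and 111 and 108 FPKM in HC at 12 h, and 7.78 and 6.74 FPKM in VLC and 9.54 and 8.19 FPKM in HC at 24 h. Its course was nearly the same under both gases, with a VLC/HC log2 change of 0.01 at 12 h. Against 0 h its log2 changes at 12 h were 2.27 in VLC and 2.25 in HC.

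A second Aurora-like gene, g4985, also peaked at 12 h, with 31.4 and 39.0 FPKM in VLC against 58.9 and 60.7 FPKM in HC. Of all genes tested at 12 h, 27.6% were called higher and 4.36% lower, or 8.85% and 11.4% relative to the median gene. Of 8 genes of the class tested at 12 h, 0 were called higher and 1 lower, and relative to the median gene 0 and 3. The lower one was g3399, a NimA-related protein kinase 2 (scaffold00095, 221268 to 224261), with 7.78 and 9.30 FPKM in VLC against 54.7 and 55.3 FPKM in HC. This was a log2 change of -2.56 (SE 0.14, limma adjusted p = 1.7e-09). Of these 2 groups the VLC libraries were also the ones further from 0 h, when it had 41.0 and 39.4 FPKM. The NEK kinase g5178 was called higher at 24 h, with 16.8 and 16.0 FPKM in VLC against 4.51 and 4.76 FPKM in HC and a change of 1.63 (limma adjusted p = 2.5e-07).

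Of the 7 other named kinases, 2 were called higher at 12 h (27.6% of all genes) and 1 lower (4.36% of all genes). The tyrosine kinase-like g7596 had 21.4 and 17.4 FPKM in VLC against 5.17 and 5.73 FPKM in HC, a log2 change of 1.65 (limma adjusted p = 1.3e-08) and 1.07 relative to the median gene. The lower one was g98, 1 of 2 genes annotated as CTR1, a kinase known in Arabidopsis from ethylene signalling, with 12.7 and 14.7 FPKM in VLC against 40.3 and 36.4 FPKM in HC and a change of -1.42 (limma adjusted p = 7.2e-08). The second such gene, g3169, was not called, with a change of 0.65 at 12 h that was 0.07 relative to the median gene. The casein kinase g3823, the most abundant of the class, had 67.1 and 66.0 FPKM in VLC against 44.7 and 45.2 FPKM in HC at 12 h and was not called.

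The 47 protein phosphatases were counted apart from the kinases. At 3 h 0 of 39 tested were called, against 0.701% of all genes higher and 0.268% lower. At 6 h 1 of 43 was called higher (1.84% of all genes) and 0 lower (0.252% of all genes). At 12 h 6 of 42 were called higher and 2 lower, or 1 and 4 after subtraction of the median gene. At 24 h 3 of 40 were called higher and 3 lower, or 1 and 3 after that subtraction. Of all genes, 11.2% were called higher and 5.95% lower at 24 h as measured, and 27.6% and 4.36% at 12 h. Relative to the median gene, 8.85% of all genes were called higher and 11.4% lower at 12 h.

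PP2C-type phosphatases are single-chain enzymes that need magnesium or manganese, and in plants they counteract stress-activated kinases. Of all genes tested at 12 h, 27.6% were called higher and 4.36% lower, and relative to the median gene 8.85% were called higher. Of 14 PP2C-type genes, 12 were tested at 12 h with 3 called higher in VLC and 0 lower, and 1 of these also relative to the median gene. That one was g2660, annotated as protein phosphatase 1E (scaffold00080, 528267 to 532436), a PP2C-type enzyme in mammals. It had 5.61 and 5.03 FPKM at 0 h, and at 12 h 15.0 and 15.7 FPKM in VLC against 3.52 and 4.03 FPKM in HC. At 24 h it had 42.7 and 43.5 FPKM in VLC against 16.5 and 18.4 FPKM in HC. Its log2 change was 1.78 at 12 h (SE 0.18, limma adjusted p = 4.4e-07) and 1.26 at 24 h (adjusted p = 2.3e-05), and 0.83 at 3 h (adjusted p = 0.0084). The most abundant gene of the class, the ptc2-like g1226, had a change of 0.89 at 12 h, against 0.585 for the median gene, and was not called.

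PP1, PP2A, PP4, PP5 and their relatives form the other family of serine/threonine phosphatases, in which PP2A works as a catalytic, a scaffold and a regulatory subunit. Of 17 catalytic genes, 15 were tested at 12 h, with 1 called higher (27.6% of all genes) and 1 lower (4.36% of all genes). At 24 h 16 were tested, with 0 called higher (11.2% of all genes) and 2 lower (5.95% of all genes). PP5, which in animals and yeast binds the chaperone Hsp90, is annotated at 2 loci that behaved differently. g5289 (scaffold00162, 253530 to 255351) had 15.8 and 18.2 FPKM in VLC against 76.0 and 80.6 FPKM in HC at 12 h, and 9.84 to 20.6 FPKM in the other 14 libraries. Its log2 change was -2.14 (SE 0.16, limma adjusted p = 3.2e-08).

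The second PP5 locus, g7349, was high at the start, with 98.4 and 102 FPKM at 0 h. At 12 h it had 21.3 and 22.7 FPKM in VLC against 20.7 and 23.9 FPKM in HC, groups that overlapped. At 24 h it had 32.5 and 32.9 FPKM in VLC against 74.7 and 69.9 FPKM in HC, a log2 change of -1.12 (SE 0.09, limma adjusted p = 5e-08). The PP2A catalytic subunit g3242 had 36.7 and 37.8 FPKM in VLC against 76.5 and 75.4 FPKM in HC at 24 h, a change of -1.01 (limma adjusted p = 1.3e-06) that stood at the 2-fold limit. It was -0.987 without VLC replicate 1 and -0.998 without HC replicate 1.

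None of the 8 phosphatase subunits and regulators was called as measured at any time. The PP2A scaffold subunit A3, g8327, had 44.4 and 41.8 FPKM in VLC against 25.2 and 29.5 FPKM in HC at 12 h, a change of 0.64. The median gene changed by 0.585 there. A PP2A regulatory B subunit, g8531, had 72.6 and 79.1 FPKM in VLC against 156 and 146 FPKM in HC at 12 h, a log2 change of -0.99 (limma adjusted p = 5.4e-07) that fell just short of 2-fold as measured. The PP1-beta gene g6631, the most abundant of the catalytic genes, had 117 and 124 FPKM in VLC against 136 and 137 FPKM in HC at 12 h.

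Tyrosine and dual specificity phosphatases remove phosphate from tyrosine, and many dual specificity ones switch MAP kinases off. Of 8 genes, 2 were called higher and 1 lower of the 7 tested at 12 h, or 0 and 2 once the median gene was subtracted. All 8 were tested at 24 h, again with 2 higher calls and 1 lower call, or 0 and 1 once it was subtracted. Of all genes, 27.6% were called higher and 4.36% lower at 12 h as measured, and 11.2% and 5.95% at 24 h. With the median gene subtracted, 8.85% of all genes were called higher and 11.4% lower at 12 h. g7297, annotated as dual specificity phosphatase 10 (scaffold00259, 321810 to 324394), an enzyme that inactivates stress-type MAP kinases in mammals, had 69.8 and 69.9 FPKM in VLC against 34.8 and 32.5 FPKM in HC at 6 h. At 24 h it had 91.9 and 92.7 FPKM in VLC against 43.0 and 43.8 FPKM in HC. The replicates lay close together and the groups well apart at both times. Its log2 changes were 1.03 at 6 h (SE 0.09, limma adjusted p = 3.1e-06), 0.78 at 12 h (adjusted p = 2.9e-06) and 1.07 at 24 h (adjusted p = 1.9e-07). Without HC replicate 2 the change at 6 h was 0.99, and relative to the median gene that at 24 h was 0.98. The change of 0.78 at 12 h is as measured and includes the shift of the median gene, 0.585.

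The dual specificity phosphatase g6634 followed the 2-way course of g3817. It had 8.17 and 10.4 FPKM in VLC against 29.7 and 27.7 FPKM in HC at 12 h, and 15.6 and 12.7 FPKM in VLC against 6.55 and 5.80 FPKM in HC at 24 h. The log2 changes were -1.54 (SE 0.15, limma adjusted p = 4.6e-07) and 1.08 (limma adjusted p = 2.7e-05). Without VLC replicate 1 the change at 24 h was 0.94, and relative to the median gene 0.98.

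g6079, a low molecular weight tyrosine phosphatase (scaffold00214, 50516 to 51737), showed the lowest ratio of any member at 24 h. It had 7.08 and 4.77 FPKM in VLC against 56.9 and 61.8 FPKM in HC, and no more than 7.37 FPKM in any library of another time, with 0 listed in 1 library of each gas at 6 h. The value that stood out was thus that of HC at 24 h. The log2 change was -3.14 (SE 0.38, limma adjusted p = 6.4e-06). The most abundant member of all, the tyrosine phosphatase g9580, had 293 and 299 FPKM at 0 h and 110 and 111 FPKM in VLC against 181 and 176 FPKM in HC at 24 h, a change of -0.69 (limma adjusted p = 1.3e-06) that did not reach 2-fold.

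**Figure D4:**
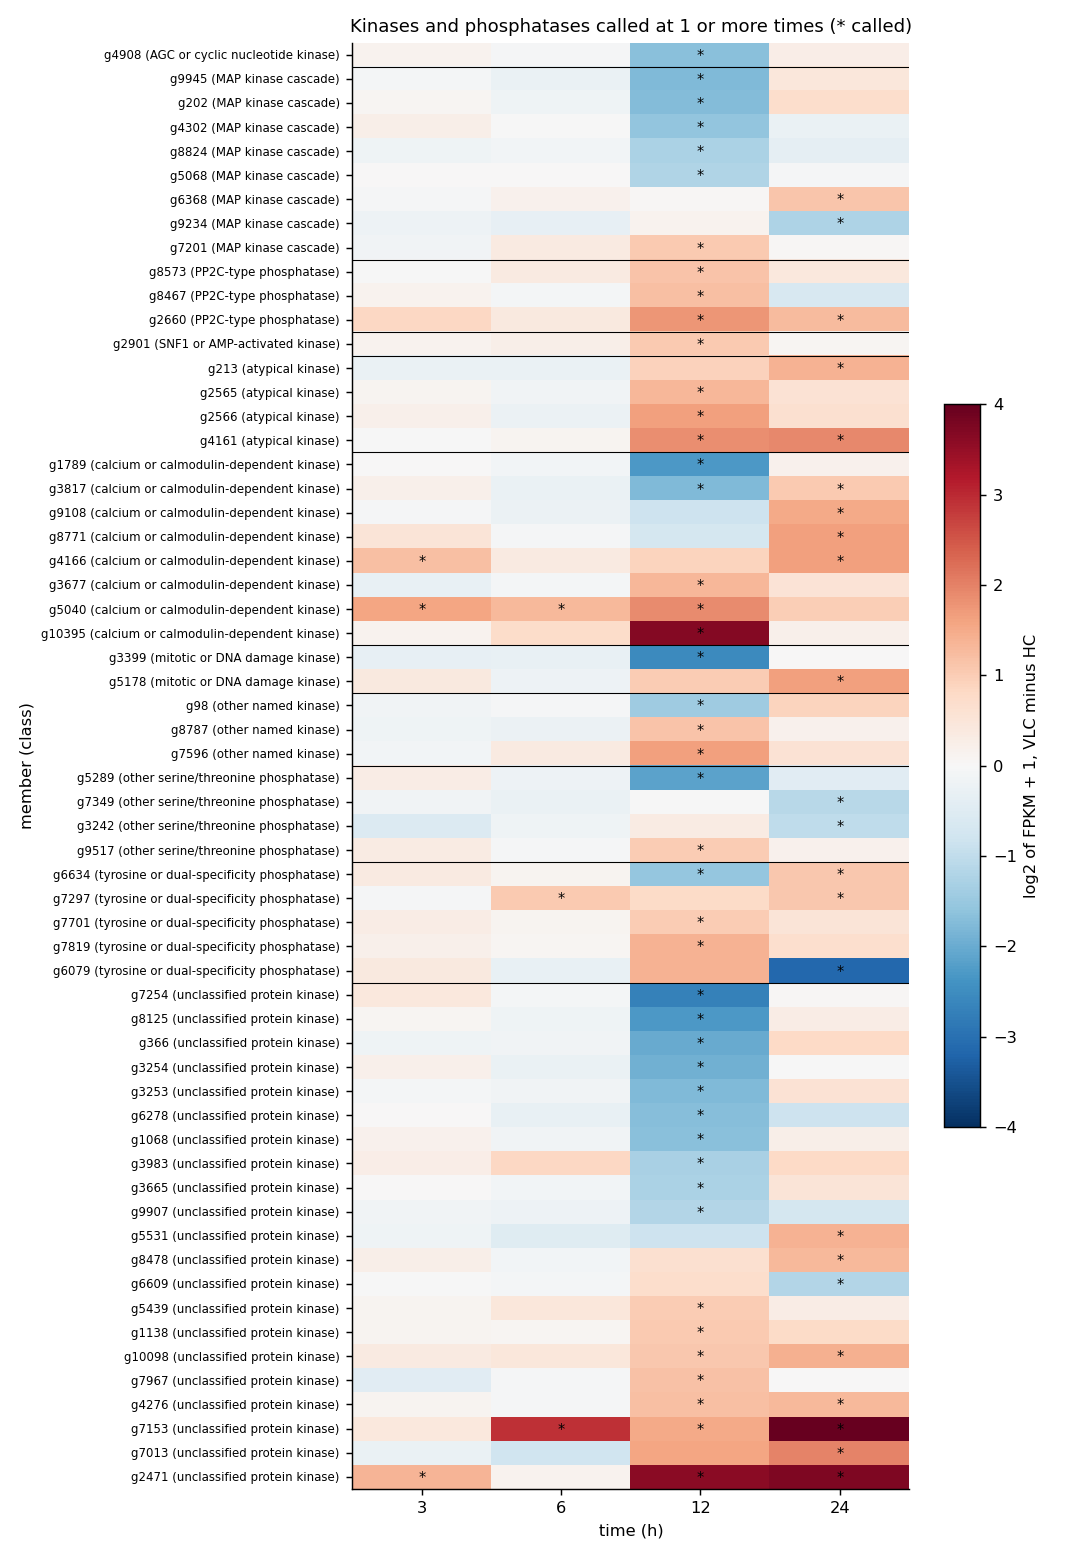
log2 change of FPKM + 1, VLC over HC (colour, red higher in VLC and blue lower), at each time in h (x axis) for the 60 kinases and phosphatases called at 1 or more times (y axis, by class and ordered by the change at 12 h), as measured, with an asterisk where called. Blue cells with an asterisk lie in the 12 h column, 22 genes, and in the 24 h column, 5 genes, and none lie at 3 or 6 h.

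The change of VLC over HC between times was tested as an interaction in the same limma model and counted where the call held in the same direction on the measured and the median-relative scale. From 6 to 12 h the VLC/HC ratio became higher in 4 of 142 genes (5.12% of all genes) and lower in 22 (4.01% of all genes). From 12 to 24 h it became higher in 28 of 146 genes (6.14% of all genes) and lower in 4 (6.14% of all genes). These 2 contrasts share the 12 h libraries.

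Levels over time were compared with 0 h under each gas. Both gases share the 0 h libraries, so the counts are given side by side and not against each other. At 3 h, 8 of 116 genes were called higher than at 0 h in VLC (9.95% of all genes) and 3 lower (4.87%), while in HC 5 of 112 were higher (8.18%) and 2 lower (3.71%). At 6 h, 27 of 124 were higher in VLC (21.1%) and 21 lower (16.5%), while in HC 23 of 120 were higher (20.5%) and 20 lower (15.7%). At 24 h, 18 of 124 were higher in VLC (20.8%) and 15 lower (14.8%), while in HC 14 of 117 were higher (14%) and 13 lower (11.3%). At these times the shares of the kinases and phosphatases stayed near or under those of all genes.

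At 12 h the shares called higher stood above those of all genes, and the shares called lower stood below them, under both gases and on both scales. In VLC 46 of 135 genes were called higher than at 0 h (28.8% of all genes) and 17 lower (15.6% of all genes), and relative to the median gene 41 higher (25.6%) and 21 lower (18.9%). In HC 50 of 135 were called higher (22.4% of all genes) and 37 lower (36.4% of all genes), and relative to the median gene 62 higher (30.1%) and 21 lower (21.4%). The median log2 change in HC at 12 h was 0.38 over these genes and -0.52 over all genes tested. Among kinases alone, 33 of 87 were higher and 11 lower in VLC, while 36 of 88 rose and 20 fell in HC. Of the phosphatases, 12 of 44 were higher and 4 lower in VLC, while 13 of 43 rose and 15 fell in HC.

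The group in which each gene had its highest mean FPKM describes the same data without a test. Among the 150 kinases and phosphatases that reached 10 FPKM, HC at 12 h was the highest group for 38 (25.3%), against 12.0% of 9265 genes. VLC at 24 h was the highest for another 38 (25.3%), against 23.4% of all genes. HC at 12 h was also the lowest group for 56 of the 150, against 46.0% of all genes, so the same group held both extremes.

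**Figure D5:**
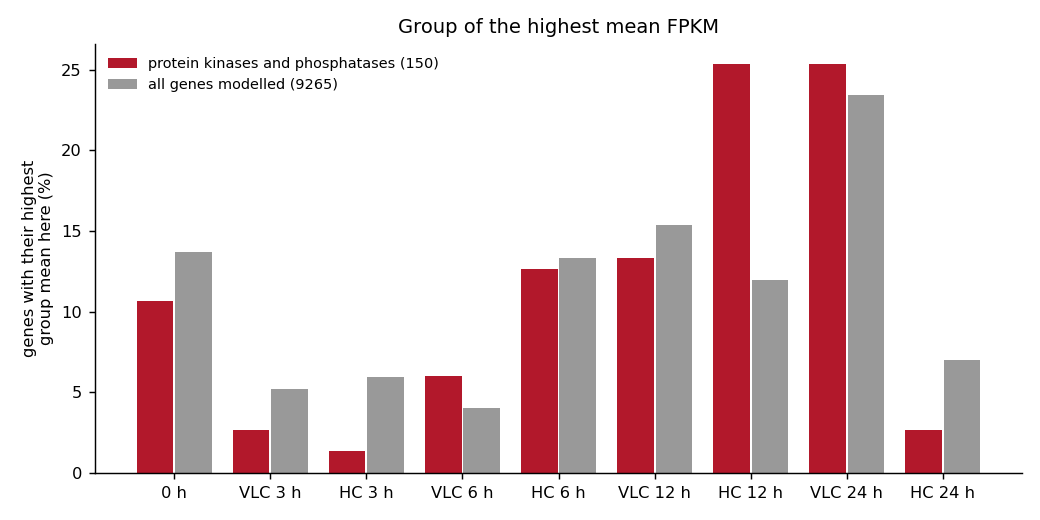
Percent of genes whose highest group mean FPKM lay in each group (y axis) for the 9 groups in order of time (x axis), for 150 kinases and phosphatases (red) and 9265 genes (grey). The bars of HC at 12 h differ most, 25.3% of the kinases and phosphatases and 12.0% of all genes.

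Other genes tied to phosphorylation signalling that the rule left out were counted for comparison, 64 in all: casein kinases, kinases of phosphoinositides and inositol phosphates, histidine kinases and two-component proteins, pyruvate dehydrogenase kinases, calmodulins and centrins, cyclins and cyclin-dependent kinases, and a 14-3-3 protein, which binds phosphorylated proteins. At 12 h 20 of 57 were called higher in VLC, against 27.6% of all genes, and 0 lower, against 4.36%. Relative to the median gene 5 were called higher, against 8.85% of all genes, and 1 lower, against 11.4%. The higher calls as measured fell on 4 of 5 casein kinases, of which 0 were called relative to the median gene, on 3 of 4 histidine or two-component genes, 3 of 4 pyruvate dehydrogenase kinases, 5 of 17 phosphoinositide and inositol phosphate kinases and 5 of 21 cyclins and cyclin-dependent kinases. The calmodulins, centrins and other calcium sensors, with 5 tested, were not called at any time. At 3 h 1 of 57 of all of these was called higher (0.701% of all genes) and 0 lower (0.268%). At 6 h 2 of 58 were called higher (1.84%) and 0 lower (0.252%). At 24 h 2 of 58 were called higher, against 11.2% of all genes, and 2 lower, against 5.95%.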

How the data were processed

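The authors aligned paired reads of strand-nonspecific poly(A) libraries to the IMET1 genome with TopHat2 (2.0.4), left out multiply mapped reads and deposited FPKM from Cufflinks (2.0.2 in the submitters' processing notes, another version in the paper). Antisense transcription therefore cannot be told apart. FPKM of the lowest genes lay within 0.1 of whole multiples in 60.9% of 747 values, too few to turn them back into reads, so count tests were not used and depth per gene is unknown. The deposited values hold no authors' comparisons.

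log2(FPKM + 1) of 9265 genes whose mean in some group reached 10 FPKM was fitted with limma (3.58.1, R 4.3.3; variance trend) as 9 group means, and p-values were adjusted (Benjamini-Hochberg) over genes that reached that mean in either group compared. The pseudocount of 1 understates changes of low genes. Calls needed an adjusted p of at most 0.05 and a 2-fold change. The model was also run on simulated data with independent noise and no shift of the median gene. That run therefore does not cover the shift seen here at 12 h or cultures that recur across times. Summaries used Python 3.11.15, pandas 2.3.3 and numpy 2.4.6, and figures were drawn with matplotlib 3.10.9.

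The sources describe 3 cultures per condition, of which 2, not identified, gave libraries, and the same cultures may recur across times. The p-values measure only the spread between these libraries, pooled over groups.

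Members, classes and lists were chosen with earlier results of these data known, and classes were revised after the annotation and some values had been read. Named genes were, at each time, up to 6 called members with the largest rise and fall (at 12 h on both scales), those called at 3 or more times or in opposite directions, and the most abundant of each class. Others named (g202, g213, g393, g2565, g3169, g3253, g3254, g3677, g4276, g4302, g4908, g4985, g5068, g5178, g5531, g6278, g6368, g7596, g8295, g8478, g8531, g8824, g98, g9108, g9945, g10098, g2009 and g2010) were picked after their values were seen. Alternatives were a pseudocount of 0.1, a minimum of 1 FPKM, no minimum, subtraction of the median gene, no variance trend, a replicate block and leaving out each library. Coordinates are those of the deposited tables. No sequence is shown, as no sequence of these genes was used here.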

Additional observations from a re-analysis of the deposited data

Results flagged for a closer look

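Only the 36 members named by rule were considered here, and not those picked after their values were seen. For 16 of the 36, the VLC/HC log2 ratio differed between neighbouring times by an interaction test in limma. The direction was the same on the measured scale and after subtraction of the median gene. Absence of a gene from this list does not mean that its ratio stayed the same, and counts over all members are given above. Differences are given as measured.

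From 6 to 12 h the ratio became lower by the following amounts on the log2 scale. The EF-hand kinase g1789 changed by -2.20 and the NimA-related kinase g3399 by -2.25. Among the unclassified kinases, g366 changed by -1.87, g7254 by -2.63, g8125 by -2.13 and g7153 by -1.43. The calcium-dependent kinase g3817 changed by -1.50, the PP5 locus g5289 by -1.93 and the dual specificity phosphatase g6634 by -1.65. Over the same step the ratio became higher by 2.92 in the calmodulin-like domain kinase g10395, by 3.47 in g2471, by 1.88 in g2566 and by 1.74 in g4161.

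From 12 to 24 h the ratio became higher by 2.49 in g1789, 2.57 in g3399, 2.82 in g366, 2.83 in g3817, 1.69 in g5289, 2.62 in g6634, 2.76 in g7254 and 2.62 in g8125, all of which had become lower in the step before. It also became higher by 2.48 in g7153 and by 2.35 in the CBL-interacting kinase g8771. It changed by -3.48 in g10395, by -4.53 in the low molecular weight tyrosine phosphatase g6079 and by -1.87 in g6609.

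Both steps use the 12 h libraries, so a high or low value in HC at 12 h enters them with opposite sign. With 2 libraries in each group, no library could be set against the rest of its group.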

How the results depend on the processing

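Of the counts of members called, those that moved by over 1.5 times did so mainly when the median gene was subtracted. VLC over HC at 12 h then gave 7 higher and 36 lower (23 and 22 as measured), VLC at 3 h over 0 h 5 lower (3), VLC at 24 h over 0 h 23 lower (15) and HC at 12 h over 0 h 21 lower (37). The change of VLC over HC from 12 to 24 h gave 4 lower (16), and that from 6 to 12 h gave 4 higher (20) and 36 lower (22). With a minimum of 1 FPKM or no minimum, HC at 3 h over 0 h gave 8 higher (5) and 4 lower (2). Leaving out single libraries moved 1 count by over 1.5 times, HC at 3 h over 0 h, where 1 to 3 were lower and the lowest count, 1, came without replicate 2 of 0 h. For VLC over HC the ranges were 2 to 4 higher at 3 h, 2 to 3 higher at 6 h, 21 to 24 higher and 22 to 25 lower at 12 h, and 17 to 19 higher and 5 lower at 24 h. The causes were not tested. Subtracting the median gene turned the median change of the members at 12 h to -0.18 (0.40), that of the kinases to -0.25 (0.33) and that of the phosphatases to -0.13 (0.45), and left more members lower than higher in VLC at 24 h over 0 h, 17 higher and 23 lower (18 and 15).

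Of 74 called changes of members between VLC and HC, none changed sign, 55 kept their call when the median gene was subtracted, and all 74 kept it with a pseudocount of 0.1, either other minimum, no variance trend or the replicate block. Without a single library 11 of the 74 lost their call: the 6 given beside their genes above, and at 12 h those of g5439 (0.99 without VLC replicate 2), g7701 (0.999 without VLC replicate 1, 0.95 without HC replicate 2), g7819 (1.23, under 10 FPKM in both groups without VLC replicate 1), g9517 (0.998 without VLC replicate 1) and g9907 (-0.99 without VLC replicate 2). Deviations of same-numbered VLC and HC libraries correlated at -0.01 to 0.02 at the 4 times, and those of VLC or HC with 0 h at -0.18 to 0.06. VLC and HC ran in separate cultures, and the culture behind each library is not known. These values thus cannot show whether a replicate number marks the same culture across times. With the replicate block 23 were higher and 22 lower in VLC at 12 h, as without it. With 2 libraries a group and an unknown depth, differences under 2-fold in genes near 10 FPKM are measured least well, and members that stayed below 10 FPKM were not tested.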
